A study of Mus musculus with 6 samples.

Results

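The genes described here encode the receptors through which hormones and nerves drive enzyme and fluid secretion by the exocrine pancreas, together with the G protein subunits of the Gq family and a regulator of these subunits. They are 8 of the 22556 genes in the tables. Cckar, Chrm1 and Chrm3 encode receptors that couple to Gq, Sctr and Vipr1 encode receptors that couple to Gs, Gnaq and Gna11 encode Gq family alpha subunits, and Rgs2 encodes a protein that shortens Gq signalling. The 8 genes were chosen by their function and no limit on a measured value was used. The choice was made with TPM values of these same mice already known, so the fold changes and adjusted p-values of the 8 genes are given as a description and not as an independent test.

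In the acinar cell, cholecystokinin and acetylcholine bind receptors that activate Gq. Gq turns on phospholipase C beta, which makes the messengers that release stored calcium and activate protein kinase C, and the rise in calcium triggers the release of zymogen granules. Secretin and vasoactive intestinal peptide act through Gs and cyclic AMP, which adds to the calcium-driven response and drives bicarbonate and fluid secretion from duct cells. Caerulein is an analogue of cholecystokinin, and doses above those that give maximal secretion are used to induce acute pancreatitis (AP) in mice.

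RNA-sequencing was performed on the pancreas of 6 male wild-type C57BL/6 mice aged 8 weeks, with 2 mice in each group. Saline mice received no caerulein. AP mice received 10 hourly injections of 200 µg/kg caerulein, and the mice of the third group (pIC mice) received polyI:C, which mimics double-stranded viral RNA, at 10 mg/kg before the same course of caerulein-induced AP. All pancreases were taken 24 h after the first injection. The labels name a ribosomal depletion kit and a stranded mRNA kit, and all libraries ran in 1 lane. The study's methods name more than a single interval between polyI:C and caerulein, and which of them applied to the sequenced mice is not given in the sources used here.

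Levels are given as TPM, in which reads are divided by the length of the gene and every mouse is brought to an equal total. Low TPM values fell near whole multiples of a step, from which the reads on the genes in the tables were estimated. They came to 3961844 and 3297121 for the saline mice, 6900057 and 8846215 for the AP mice, and 8818129 and 10826206 for the pIC mice. Reads on genes absent from the tables, such as the acinar marker Cpa1, are not included. These counts are therefore not the depth of the whole library. A single read of a gene with median length was worth 0.217 and 0.265 TPM with saline and 0.0958 TPM in pIC replicate 2. Low genes were therefore measured least precisely in saline mice. Fold changes were computed from log2(TPM + 0.5), so those of low genes are understated. A gene passed the test with an adjusted p of at most 0.05 in limma and a fold change of at least 2, among the 16814 genes whose mean reached 1 TPM. Of the 8 genes, 7 met that mean and Chrm1 did not. With 2 mice in each group the smallest p of an exact permutation test is 0.333, so none was run.

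Cckar was the most abundant of the 8 transcripts in every mouse and the one with the clearest difference between the groups. It encodes the cholecystokinin A receptor, the target of caerulein on acinar cells (ENSMUSG00000029193, minus strand of chromosome 5, 53697776 to 53707705, GRCm38). Its level was 612 and 653 TPM with saline, 166 and 184 TPM with AP, and 517 and 594 TPM with pIC. Both AP mice lay far below the other 4 mice, and both pIC mice lay between the AP and the saline mice without overlapping either group. Among the 22556 genes, Cckar stood above 99.3% in both saline mice, above 96.5% and 96.7% with AP, and above 99.1% and 99.2% with pIC.

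In AP mice, Cckar was 3.61-fold lower than in saline mice (log2 fold change -1.85 ± 0.11 SE, adjusted p = 8.22e-05). In pIC mice it was 3.17-fold higher than in AP mice (log2 fold change 1.66 ± 0.11, adjusted p = 0.00362). Against saline mice the pIC mice differed by a log2 fold change of -0.19 ± 0.11 (adjusted p = 0.208). These comparisons share mice and are not independent of each other. Bulk tissue was sequenced, so fewer acinar cells and less RNA per acinar cell cannot be told apart. The difference between pIC and AP mice kept its size with each mouse left out, but no longer passed the test without AP replicate 1 (1.59, adjusted p = 0.329), without AP replicate 2 (1.74, adjusted p = 0.304) or without pIC replicate 2 (1.56, adjusted p = 0.302). With any of these 3 mice left out, 0 of all tested genes passed in limma for that comparison. With 1 prior variance for all genes the adjusted p was 0.0687.

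**Figure D1:**
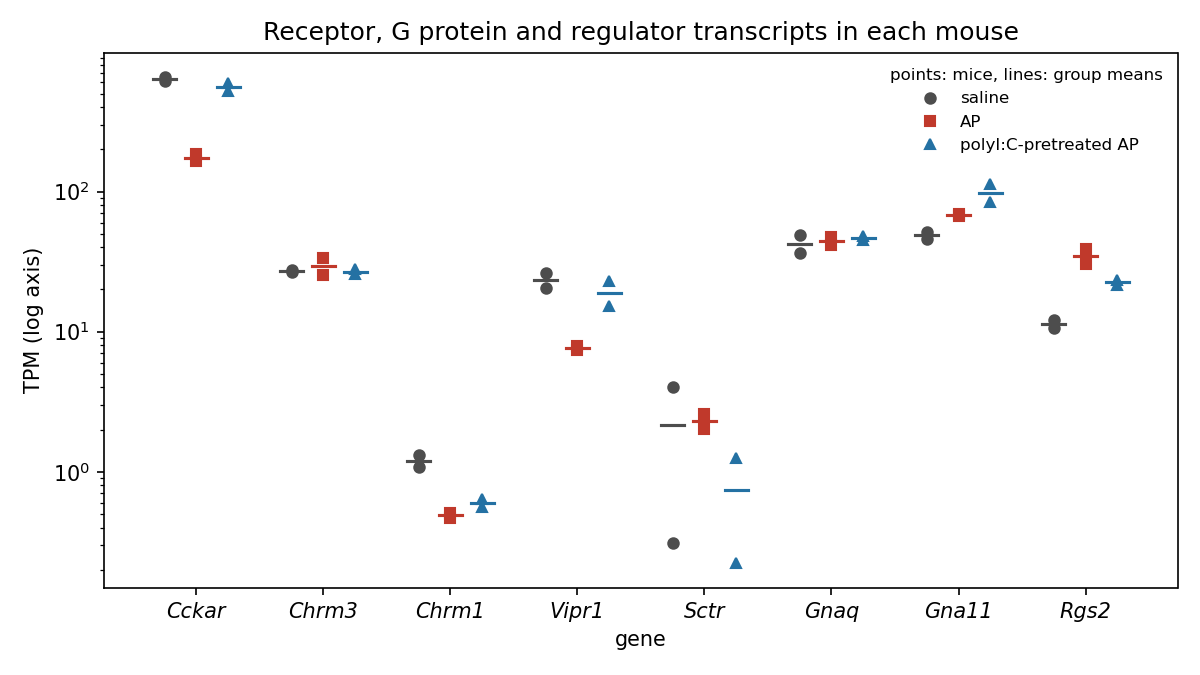
TPM of each of the 8 genes on a log axis, with a point per mouse, a short line at the mean of each group, and colours and symbols for saline, AP and pIC mice. Cckar and Vipr1 are lowest with AP, Rgs2 is highest there, and the points of Chrm3 and Gnaq overlap between the groups.

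Chrm3, the muscarinic receptor that carries most of the acetylcholine response of acinar cells, showed no such pattern (ENSMUSG00000046159, minus strand of chromosome 13, 9875486 to 10360847). Its level was 27.7 and 26.6 TPM with saline, 33.5 and 25.5 TPM with AP, and 27.8 and 25.6 TPM with pIC. All 3 groups overlapped. The log2 fold change was 0.10 ± 0.15 for AP against saline (adjusted p = 0.635) and -0.13 ± 0.15 for pIC against AP (adjusted p = 0.78). The ratio of Cckar to Chrm3, both per length, was 22.1 and 24.5 with saline, 4.95 and 7.22 with AP, and 18.6 and 23.2 with pIC. The 2 Gq-coupled receptors therefore stood in a different proportion in AP mice than in the other mice, whatever scaling is applied to a library.

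Chrm1, the other muscarinic receptor with Gq coupling, was barely detected (ENSMUSG00000032773, plus strand of chromosome 19, 8663789 to 8683587). It was listed at 1.31 and 1.08 TPM with saline, 0.471 and 0.508 TPM with AP, and 0.558 and 0.638 TPM with pIC. Both saline mice lay above the other 4 mice. These values rest on an estimated 12.4 and 8.3 reads with saline and 6.49 and 8.89 reads with AP. Fitted without the filter on low values, the log2 fold change for AP against saline was -0.78 ± 0.35 (adjusted p = 0.171). An antisense gene, Gm22820, covers 5.07% of its exon length, and reads of the 2 genes may not have been separated.

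Of the receptors that couple to Gs, Vipr1 followed the order seen for Cckar. It encodes a receptor for vasoactive intestinal peptide (ENSMUSG00000032528, plus strand of chromosome 9, 121642716 to 121672954). The saline mice had 26.3 and 20.4 TPM, the AP mice 7.89 and 7.40 TPM, and the pIC mice 15.1 and 22.9 TPM. Both AP mice were below every other mouse, and the saline and pIC mice overlapped. Vipr1 was 2.9-fold lower in AP than in saline mice (log2 fold change -1.54 ± 0.22, adjusted p = 0.00213), which no longer passed without AP replicate 2 (-1.49, adjusted p = 0.0545). Between pIC and AP mice the log2 fold change was 1.23 ± 0.22 (adjusted p = 0.0625), just short of the threshold, and it passed when the filter was raised to a mean of 5 TPM (adjusted p = 0.0442). The ratio of Cckar to Vipr1 was 23.3 and 32.1 with saline, 21 and 24.9 with AP, and 34.2 and 26.0 with pIC. The saline mice overlapped both other groups, and both pIC mice lay above both AP mice.

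Sctr, the secretin receptor, had few reads and passed in none of the 3 comparisons (ENSMUSG00000026387, plus strand of chromosome 1, 120006894 to 120063536). Its level was 4.02 and 0.309 TPM with saline, 2.57 and 2.04 TPM with AP, and 1.26 and 0.222 TPM with pIC. The 2 saline mice lay on either side of both AP mice, and their values rest on an estimated 11.8 and 0.738 reads. The log2 fold change for AP against saline was 0.55 ± 0.93 (adjusted p = 0.687), and it turned to -0.69 without saline replicate 2. Both pIC mice lay below both AP mice (-1.31 ± 0.93, adjusted p = 0.616).

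The 2 Gq family alpha subunits differed from each other, and Gnaq resembled Chrm3. Gnaq (ENSMUSG00000024639, plus strand of chromosome 19, 16132831 to 16387463) had 48.7 and 36.3 TPM with saline, 47.3 and 41.4 TPM with AP, and 48.3 and 44.8 TPM with pIC. All groups overlapped, and the log2 fold change was 0.07 ± 0.16 both for AP against saline (adjusted p = 0.759) and for pIC against AP (adjusted p = 0.899). Gna11 (ENSMUSG00000034781, minus strand of chromosome 10, 81528724 to 81545190) had 51.2 and 46.0 TPM with saline, 66.6 and 69.2 TPM with AP, and 83.8 and 112.7 TPM with pIC. No group overlapped another, with the saline mice lowest and the pIC mice highest.

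Gna11 did not pass the test in any of the 3 comparisons. Its log2 fold change was 0.48 ± 0.15 for AP against saline (adjusted p = 0.0464) and 0.51 ± 0.15 for pIC against AP (adjusted p = 0.204). Between pIC and saline mice the difference was 1.99-fold (adjusted p = 0.003), a fold change just below the limit of 2. With a pseudocount of 0.1 it passed (adjusted p = 0.00403), as it did without saline replicate 1 (1.07, adjusted p = 0.0204) or pIC replicate 1 (1.21, adjusted p = 0.0158). After median-of-ratios scaling the same difference was 0.54 (adjusted p = 0.0491), well below the limit on the fold change. The ratio of Gna11 to Gnaq was 1.05 and 1.27 with saline, 1.41 and 1.67 with AP, and 1.74 and 2.52 with pIC. In transcripts of M21, 0 of 4046 stretches of 50 bases of Gna11 also occurred in other genes, so Gna11 shares none with Gnaq. For Gnaq, 10 of 6129 stretches (0.163%) also occurred in other genes.

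Rgs2 moved in the opposite direction to Cckar. Its product binds active Gq alpha subunits and ends their signal (ENSMUSG00000026360, minus strand of chromosome 1, 143999338 to 144004161). Rgs2 was at 10.6 and 12.1 TPM with saline, 30.6 and 39.0 TPM with AP, and 21.4 and 23.5 TPM with pIC. No group overlapped another, and the pIC mice lay in the middle. Rgs2 was 2.96-fold higher in AP than in saline mice (log2 fold change 1.57 ± 0.17, adjusted p = 0.000693). The log2 fold change was -0.61 ± 0.17 for pIC against AP (adjusted p = 0.173) and 0.96 ± 0.17 for pIC against saline (adjusted p = 0.0052), and neither passed the test. The latter passed without saline replicate 2 (1.05, adjusted p = 0.0196) or without pIC replicate 1 (1.02, adjusted p = 0.0491). It was 0.51 after median-of-ratios scaling, where the adjusted p was 0.0694, and 0.89 without pIC replicate 2. The ratio of Cckar to Rgs2 was 57.9 and 53.8 with saline, 5.41 and 4.72 with AP, and 24.1 and 25.3 with pIC.

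Counted together, 1 of the 7 tested genes was higher and 2 were lower in AP than in saline mice, where 18.1% of all tested genes were higher and 4% were lower. For pIC against AP, 1 was higher and 0 were lower in limma, against 0.452% and 0.434% of all tested genes. At an unadjusted p of at most 0.05 and the same fold change, 2 were higher and 0 were lower in that comparison, beside 330 and 401 of the 16814 tested genes. Between pIC and saline mice, 0 of the 7 passed in either direction in limma, also at an unadjusted p of at most 0.05, against 16.9% of all tested genes higher and 2.97% lower. At the unadjusted p, 3210 of the 16814 tested genes were higher and 605 were lower there.

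Most tested genes stood higher in AP and pIC mice than in saline mice. Over the tested genes, the median change on the log2 scale came to 0.45 for AP against saline, 0.48 for pIC against saline and 0.04 for pIC against AP. Median-of-ratios scaling of the TPM columns reduced these medians to 0.06, 0.06 and 0.02. Relative to the median of all genes, AP against saline mice differed by -2.30 for Cckar, -1.99 for Vipr1, 1.12 for Rgs2, 0.03 for Gna11, -0.35 for Chrm3 and -0.38 for Gnaq on the log2 scale. After that scaling, Cckar (-2.28), Vipr1 (-1.95) and Rgs2 (1.15) still passed in the same directions. The fold changes of Chrm3 (-0.32, adjusted p = 0.161) and Gnaq (-0.35, adjusted p = 0.132) turned negative and did not pass. Between pIC and saline mice, Cckar stood at -0.64 after scaling (adjusted p = 0.00706), with a fold change below 2.

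The order of the levels, which TPM gives per length, was Cckar, Gna11, Gnaq, Chrm3, Vipr1, Rgs2, Sctr and Chrm1 in saline mice. Gna11 and Gnaq overlapped there, as did Sctr and Chrm1, while the other neighbours in this order did not overlap. In AP mice Rgs2 (34.8 ± 5.92 TPM, SD, n = 2) came before Chrm3 (29.5 ± 5.63 TPM), and these 2 overlapped. In pIC mice Rgs2 (22.5 ± 1.44 TPM) stood between Chrm3 (26.7 ± 1.59 TPM) and Vipr1 (19.0 ± 5.48 TPM) and overlapped Vipr1. Cckar remained first in all groups, with a mean of 633 ± 29.0 TPM in saline mice, 175 ± 13.0 TPM in AP mice and 556 ± 54.5 TPM in pIC mice.

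A list of other genes of the pathway, drawn up by function, held 135 genes in the tables, of which 101 were tested. For AP against saline 16 of these (15.8%) were higher and 7 (6.93%) were lower, with a median log2 fold change of 0.21 beside 0.45 for all tested genes. After median-of-ratios scaling the split was 8 higher and 15 lower, where 1574 of all tested genes were higher and 1224 were lower. Those counts of all genes also apply to the scaled counts of each sublist and marker list for AP against saline mice. Of the 23 genes that passed, 10 also passed under every alternative setting and with each mouse left out. These were Glp1r, Vipr2, Grpr, Plcb1, Rgs11, Gal, Gnai2, Prkcd, Vip and Adcy7.

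Among other receptors, 3 of 12 tested genes (25%) fell and 3 (25%) rose in AP mice, beside 4% and 18.1% of all tested genes. After median-of-ratios scaling 3 were lower and 1 was higher. Glp1r, the receptor for glucagon-like peptide 1, fell from 189 and 186 TPM with saline to 70.2 and 66.3 TPM with AP (log2 fold change -1.45 ± 0.09, adjusted p = 0.000105). Vipr2, another receptor for vasoactive intestinal peptide, fell from 35.1 and 33.7 TPM to 12.0 and 10.3 TPM (-1.59 ± 0.14, adjusted p = 0.000305). Grpr, the Gq-coupled receptor for gastrin-releasing peptide, fell from 30.4 and 33.1 TPM to 9.65 and 5.87 TPM (-2.00 ± 0.25, adjusted p = 0.00112). In the pIC mice the levels were 101 and 93.8 TPM for Glp1r, 18.0 and 18.7 TPM for Vipr2, and 19.2 and 17.2 TPM for Grpr, between the saline and the AP mice in each case. None of the 3 passed for pIC against AP or, without scaling, for pIC against saline. After median-of-ratios scaling all 3 were lower in pIC than in saline mice (-1.40, -1.34 and -1.23).

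The receptors that rose started from low levels. F2rl1, the protease-activated receptor 2, rose from 7.71 and 3.98 TPM in saline mice to 19.0 and 24.6 TPM in AP mice (1.87 ± 0.31, adjusted p = 0.00346), and was at 18.0 and 18.3 TPM in pIC mice. Cckbr, the cholecystokinin B receptor, was at 1.70 and 2.35 TPM in saline mice and 7.12 and 5.63 TPM in AP mice (1.45 ± 0.38, adjusted p = 0.0227). Cckbr thus remained well below Cckar in every mouse. Adcyap1r1, the receptor for pituitary adenylate cyclase-activating peptide, was at 1.59 and 2.61 TPM in saline mice and 5.44 and 4.48 TPM in AP mice (1.09 ± 0.28, adjusted p = 0.0194). After median-of-ratios scaling Cckbr (1.08, adjusted p = 0.074) and Adcyap1r1 (0.73, adjusted p = 0.0972) no longer passed. Cckbr did not pass without saline replicate 1 (1.26, adjusted p = 0.0935), saline replicate 2 (1.63, 0.0512), AP replicate 1 (1.29, 0.154) or AP replicate 2 (1.60, 0.105). Adcyap1r1 did not pass without saline replicate 1 (0.81, adjusted p = 0.0608), AP replicate 1 (0.97, 0.145), AP replicate 2 (1.22, 0.0965), pIC replicate 1 (1.09, 0.0599) or replicate 2 (1.09, 0.0637). F2rl1 did not pass without AP replicate 2 (1.69, adjusted p = 0.0736). Between pIC and saline mice F2rl1 was also higher (1.62 ± 0.31, adjusted p = 0.00652), but not without pIC replicate 1 (1.63, adjusted p = 0.0836) or replicate 2 (1.61, adjusted p = 0.0899).

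Of 6 tested ligand genes, 1 (16.7%) fell and 2 (33.3%) rose in AP mice, beside 4% and 18.1% of all tested genes. Gal encodes galanin, a neuropeptide, and had the highest mean of this sublist over the 6 mice, though not the highest level in every mouse. It was at 342.5 and 216.5 TPM with saline, 51.9 and 37.9 TPM with AP, and 24.1 and 27.7 TPM with pIC. The log2 fold change was -2.60 ± 0.26 for AP against saline (adjusted p = 0.000484) and -3.37 ± 0.26 for pIC against saline (adjusted p = 0.000218). Unlike Cckar, Gal was lowest with pIC. Vip, the ligand of Vipr1 and Vipr2, rose from 0.506 and 1.04 TPM with saline to 8.18 and 5.19 TPM with AP (2.50 ± 0.37, adjusted p = 0.00239). Tac1, the precursor of substance P, was listed at 0 and 0.358 TPM with saline and at 3.08 and 2.83 TPM with AP (adjusted p = 0.0148), and did not pass without saline replicate 1 (2.01, 0.0588), AP replicate 1 (2.35, 0.1) or AP replicate 2 (2.45, 0.0957). Vip was at 3.10 and 2.99 TPM in pIC mice (1.51 ± 0.37 against saline mice, adjusted p = 0.0188), which did not pass without saline replicate 1 (1.20), AP replicate 1 (1.51, adjusted p = 0.053), pIC replicate 1 (1.49) or replicate 2 (1.53), after median-of-ratios scaling (1.19, adjusted p = 0.0671) or with only the 2 groups compared (adjusted p = 0.0605).

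At an unadjusted p of at most 0.05 and the same fold change, 5 of 20 tested genes for G protein subunits and their chaperones were higher in AP mice and 0 were lower. Of all 16814 tested genes, 3398 were higher and 796 were lower at that limit. In limma, 4 of the 20 rose and 0 fell. The 20% that rose stand beside 18.1% of all tested genes, and after median-of-ratios scaling 1 was higher and 1 was lower. Gnai2, an inhibitory alpha subunit abundant in leukocytes, rose from 20.4 and 19.4 TPM with saline to 76.9 and 78.9 TPM with AP (1.94 ± 0.11, adjusted p = 8.53e-05). It was at 63.1 and 55.7 TPM with pIC (1.55 ± 0.11 against saline mice, adjusted p = 0.000191). Gnb1, a beta subunit, rose from 26.7 and 18.8 TPM to 56.5 and 56.1 TPM (1.31 ± 0.17, adjusted p = 0.00131), and Ric8a, a chaperone of Gq and related alpha subunits, from 12.2 and 13.7 TPM to 26.2 and 27.5 TPM (1.03 ± 0.13, adjusted p = 0.00123). Gnb1 (0.89) and Ric8a (0.61) did not reach a fold change of 2 after median-of-ratios scaling, and Ric8a did not without saline replicate 1 (0.94) or AP replicate 2 (0.99). Gnb1 also passed for pIC against saline, at 67.4 and 63.5 TPM (1.53 ± 0.17, adjusted p = 0.000819), in every setting run. Of the stretches of 50 bases of Ric8a, 8.99% also occurred in other genes, so its level is uncertain. Gna12, another alpha subunit, also rose, from 21.6 and 24.9 TPM to 49.2 and 46.2 TPM (1.03 ± 0.13, adjusted p = 0.00121), but not after scaling (0.60) or without saline replicate 1 (0.93) or AP replicate 1 (0.98), and 10.8% of its stretches also occurred in Amz1. The most abundant gene of the sublist was Gnai3, at 225 and 273 TPM in saline mice and 417.5 and 438 TPM in AP mice, which did not pass. Gnas, which encodes the Gs alpha subunit, was listed at 0.599 to 0.925 TPM, below the mean needed for the test, and why so few reads were assigned to it was not tested.

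The largest fall on the list was that of Rgs11, a regulator of G protein signalling (ENSMUSG00000024186, plus strand of chromosome 17, 26202951 to 26211324). Rgs11 was at 106 and 114 TPM with saline, 8.85 and 9.60 TPM with AP, and 32.4 and 31.4 TPM with pIC. No group overlapped another. The log2 fold change was -3.50 ± 0.11 for AP against saline (adjusted p = 1.35e-05) and 1.74 ± 0.11 for pIC against AP (adjusted p = 0.00362). Against saline mice, the pIC mice were still lower (-1.77 ± 0.11, adjusted p = 0.000104). Like that of Cckar, the rise for pIC against AP no longer passed without AP replicate 1 (1.68, adjusted p = 0.329), AP replicate 2 (1.79, adjusted p = 0.234) or pIC replicate 2 (1.76, adjusted p = 0.302).

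Of 17 tested genes for RGS proteins, receptor kinases and arrestins, Rgs11 was the single gene that fell in AP mice (5.88%) and 4 rose (23.5%), beside 4% and 18.1% of all tested genes, with 2 lower and 2 higher after median-of-ratios scaling. Rgs14 rose from 0.144 and 0.177 TPM in saline mice to 3.06 and 3.04 TPM in AP mice (2.43 ± 0.49, adjusted p = 0.00809), Rgs10 from 3.08 and 1.58 TPM to 13.2 and 11.2 TPM (2.21 ± 0.39, adjusted p = 0.00466), and Rgs19 from 4.02 and 4.10 TPM to 8.31 and 9.80 TPM (1.06 ± 0.27, adjusted p = 0.0188). These 3 genes act mainly on inhibitory alpha subunits, and none of them passed without AP replicate 1 (2.42, 2.11 and 1.18, adjusted p = 0.0616, 0.067 and 0.0677) or without AP replicate 2 (2.43, 2.32 and 0.95, adjusted p = 0.0646, 0.0574 and 0.11). Rgs19 also did not pass after median-of-ratios scaling (0.67, adjusted p = 0.104) or with a pseudocount of 1 (0.99). The fourth was Grk2, a receptor kinase, at 19.5 and 20.4 TPM in saline mice and 41.0 and 41.6 TPM in AP mice (1.03 ± 0.13, adjusted p = 0.00106), which did not pass after median-of-ratios scaling (0.61). With pIC, Rgs10 was at 3.72 and 5.01 TPM and Rgs14 at 0.563 and 0.128 TPM, and neither passed for pIC against AP (adjusted p = 0.178 and 0.116). Grk6, a kinase that phosphorylates active receptors, had the highest mean of this sublist over the 6 mice. Rgs11 was higher in saline mice, and Rgs5 had a higher mean in AP mice (71.5 against 62.4 TPM). Grk6 was at 44.4 and 58.5 TPM in saline mice and 52.6 and 72.2 TPM in AP mice. Rgs12 passed for pIC against saline (1.13 ± 0.31, adjusted p = 0.0257), at 2.88 and 4.29 TPM against 1.76 and 0.995 TPM, but not without saline replicate 2 (0.83), either AP mouse (1.13, adjusted p = 0.0869 and 0.0864) or either pIC mouse (1.38 and 0.88, adjusted p = 0.0678 and 0.175). After median-of-ratios scaling it did not pass either (0.77, adjusted p = 0.119).

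Downstream of Gq, 1 of 23 tested genes for phospholipase C, diacylglycerol and calcium effectors fell (4.35%) and 2 rose (8.7%) in AP mice, beside 4% and 18.1% of all tested genes, and after median-of-ratios scaling 3 were lower and 1 was higher. Plcb1, a phospholipase C beta activated by Gq (ENSMUSG00000051177), fell from 26.9 and 25.9 TPM with saline to 6.31 and 6.69 TPM with AP (-1.94 ± 0.11, adjusted p = 8.08e-05). It remained low with pIC, at 8.31 and 8.50 TPM (-1.60 ± 0.11 against saline mice, adjusted p = 0.000158). Prkcd, a protein kinase C isoform of acinar and other cells, rose from 10.5 and 6.64 TPM to 33.5 and 30.3 TPM (1.87 ± 0.23, adjusted p = 0.00113). Prkcb, an isoform abundant in leukocytes, was at 1.42 and 1.11 TPM in saline mice and 2.96 and 5.80 TPM in AP mice (1.41 ± 0.42, adjusted p = 0.0356), and it did not pass with any single mouse left out (adjusted p from 0.0639 to 0.258). Prkcd was at 20.1 and 25.7 TPM in pIC mice (1.39 ± 0.23 against saline mice, adjusted p = 0.00387), which did not pass without pIC replicate 2 (1.21, adjusted p = 0.073) or after median-of-ratios scaling (0.95). Dgka, which removes diacylglycerol, had the highest mean of the sublist over the 6 mice, though not in pIC mice, and ranged from 61.5 to 77.8 TPM.

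Between pIC and saline mice, Plcb3, another phospholipase C beta, and Itpr3, a calcium release channel of acinar cells, also passed. Plcb3 was at 30.8 and 30.9 TPM with saline, 57.7 and 58.6 TPM with AP, and 54.3 and 92.8 TPM with pIC (1.19 ± 0.23, adjusted p = 0.00682). Itpr3 was at 36.0 and 30.8 TPM with saline and 76.3 and 61.0 TPM with pIC (1.02 ± 0.14, adjusted p = 0.0018). Neither passed after median-of-ratios scaling (0.74 and 0.57). Itpr3 did not reach a fold change of 2 without saline replicate 2 (0.91) or pIC replicate 1 (0.86). Plcb3 did not pass without either saline mouse (adjusted p = 0.0565 and 0.0576), either AP mouse (0.0526 and 0.0525) or pIC replicate 2 (0.81).

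On the cyclic AMP arm, 1 of 23 tested genes fell and 1 rose in AP mice (4.35% each, beside 4% and 18.1% of all tested genes), and after median-of-ratios scaling 5 were lower and 1 was higher. Pde3b, a phosphodiesterase, fell from 55.1 and 68.4 TPM with saline to 31.1 and 24.9 TPM with AP (-1.13 ± 0.15, adjusted p = 0.00149), with a fold change below 2 without saline replicate 2 or AP replicate 2 (-0.97 for both). Adcy7, an adenylyl cyclase abundant in leukocytes, rose from 3.66 and 3.16 TPM to 11.7 and 11.9 TPM (1.66 ± 0.21, adjusted p = 0.00117). It was lower again in pIC mice, at 5.51 and 3.92 TPM, which did not pass against AP mice with the replicate number as a block (adjusted p = 0.0584). In the main fit the log2 fold change against AP mice was -1.26 ± 0.21 (adjusted p = 0.0487). That adjusted p was above 0.05 with any single mouse left out, from 0.0911 to 0.449. Prkar1a, a regulatory subunit of protein kinase A, had the highest mean of the sublist over the 6 mice, though not in saline mice, at 71.8 and 64.5 TPM in saline mice and 121.5 and 122 TPM in AP mice, and did not pass.

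Over the whole list, Rgs11 and Adcy7 were the 2 genes that passed for pIC against AP, 1 higher and 1 lower (0.99% each, beside 0.452% higher and 0.434% lower of all tested genes), with a median log2 fold change of -0.02 beside 0.04 for all tested genes. At an unadjusted p of at most 0.05 and the same fold change, 2 were higher and 6 were lower, beside 330 and 401 of the 16814 tested genes. Between pIC and saline mice 8 genes were higher (7.92%) and 3 were lower (2.97%), beside 16.9% and 2.97% of all tested genes, with a median of 0.16 beside 0.48. After median-of-ratios scaling 3 were higher and 9 lower, where 1322 of all tested genes were higher and 978 were lower.

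**Figure D2:**
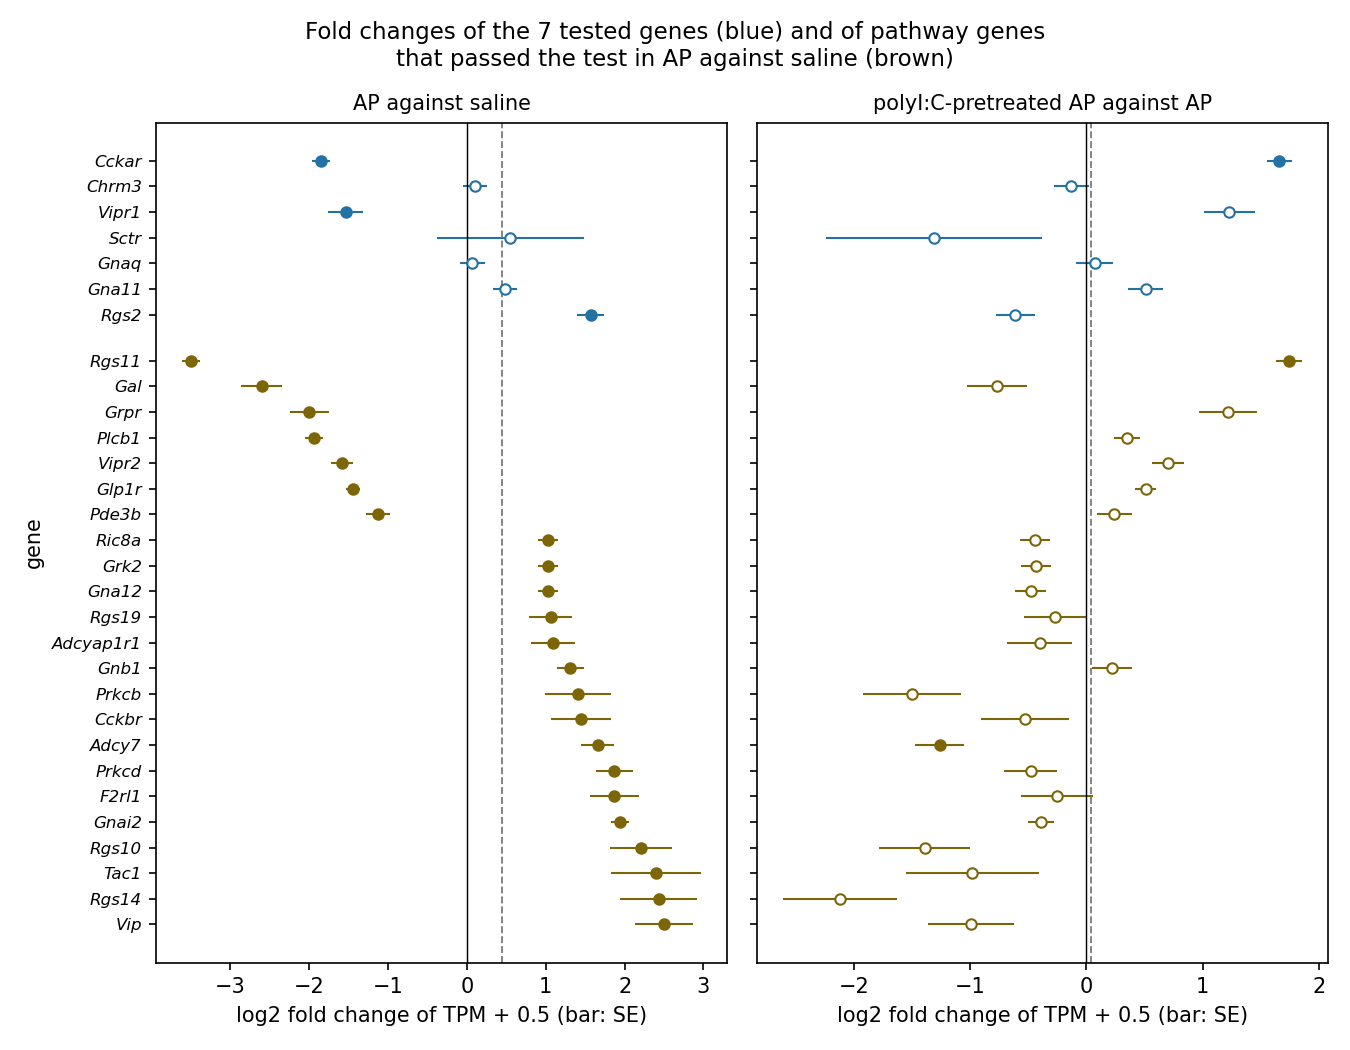
Log2 fold changes of TPM + 0.5 with their standard errors for AP against saline mice and for pIC against AP mice, for the 7 tested genes of the 8 (blue) and the 23 pathway genes that passed for AP against saline (brown). Filled points passed the test in that comparison, open points did not, and the dashed line marks the median of all tested genes.

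Marker genes of pancreatic cell types also differed between the groups. Of 30 acinar markers, 11 were in the tables, and the others were not analysed here. Of the 10 tested, 6 (60%) were lower in AP than in saline mice, beside 4% of all tested genes, and 7 were lower after median-of-ratios scaling. The summed level of the 11 was 107870 and 93921 TPM with saline, 41572 and 25738 TPM with AP, and 17016 and 15556 TPM with pIC. Most of that sum came from Sycn, a zymogen granule protein, at 98750 and 86870 TPM, 31900 and 21350 TPM, and 14470 and 11040 TPM in the same order. For pIC against AP, 3 of the 10 tested acinar markers (30%) were higher and 0 were lower in limma, beside 0.452% and 0.434% of all tested genes. At an unadjusted p of at most 0.05 and the same fold change, 3 were higher and 3 lower, beside 330 and 401 of the 16814 tested genes. Against saline mice, 5 (50%) were lower and 0 were higher with pIC, also at an unadjusted p. In limma, 2.97% of all tested genes were lower there and 16.9% were higher. Aqp8, a water channel, was lowest in pIC mice, at 40.3 and 47.2 TPM, 10.3 and 17.6 TPM, and 4.32 and 3.77 TPM (-1.63 ± 0.28 for pIC against AP, adjusted p = 0.0559). The tested enzyme genes Ctrc, Amy2a5 and Prss3 did not move alike. Prss3, a trypsinogen and the second most abundant of these markers, was at 6211 and 4412 TPM, 9093 and 3884 TPM, and 1688 and 3647 TPM, and passed in no comparison (0.18 ± 0.48 for AP against saline and -1.26 ± 0.48 for pIC against AP, adjusted p = 0.803 and 0.314). Ctrc, a chymotrypsin, was at 1742 and 1677 TPM, 194 and 167 TPM, and 160 and 141 TPM, and like Sycn it was not higher in pIC than in AP mice. Amy2a5, an amylase, was at 290 and 213 TPM, 22.1 and 16.9 TPM, and 52.6 and 57.2 TPM. It was lower in AP than in saline mice (-3.65 ± 0.18, adjusted p = 5.59e-05) and, like Cckar, higher in pIC than in AP mice (1.48 ± 0.18, adjusted p = 0.0231). The latter did not pass without AP replicate 1, AP replicate 2 or pIC replicate 2, where 0 of all tested genes passed in limma. Amy2a2 was listed at 0 in the AP and the pIC mice and at 0.368 and 0.227 TPM with saline.

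The acinar transcription factors on the list did not all move alike. They, Aqp8, Ctrc, Amy2a5, Prss3 and the myeloid and ductal genes given with values below, other than Lyz2 and S100a8, were chosen after their values were seen. Bhlha15, which maintains the secretory state, was at 391 and 326 TPM with saline, 53.6 and 46.4 TPM with AP, and 161 and 171 TPM with pIC (-2.83 ± 0.13 for AP against saline, adjusted p = 3.94e-05, and 1.73 ± 0.13 for pIC against AP, adjusted p = 0.00395). Rbpjl, a subunit of an acinar transcription complex, was at 238 and 195 TPM, 104 and 79.8 TPM, and 196 and 190 TPM, and also passed in both comparisons (adjusted p = 0.00117 and 0.0328). Neither passed for pIC against AP without AP replicate 1, AP replicate 2 or pIC replicate 2, where 0 of all tested genes passed in limma. Ptf1a, its partner in that complex, was at 44.5 and 40.8 TPM, 55.2 and 43.4 TPM, and 67.3 and 98.3 TPM, and did not pass in either. Gata4 was at 63.5 and 47.0 TPM, 34.3 and 30.1 TPM, and 54.4 and 58.4 TPM, and passed for AP against saline only after median-of-ratios scaling (-0.76 before and -1.18 after). Nr5a2 was at 92.4 and 97.0 TPM, 107 and 105 TPM, and 165 and 145 TPM, and did not pass in either (0.16 and 0.55). The ratio of Cckar to Ptf1a was 13.8 and 16.0 in saline mice, 3 and 4.24 in AP mice, and 7.69 and 6.04 in pIC mice. The ratio of Cckar to Rbpjl was 2.58 and 3.35, 1.59 and 2.30, and 2.63 and 3.12, and the ratio to Bhlha15 was 1.56 and 2.00, 3.09 and 3.97, and 3.20 and 3.47. The difference between AP and saline mice was thus smaller for Cckar than for Bhlha15. An antisense gene, Ptf1aos, covers 40.4% of the exon length of Ptf1a, so its level and the ratio to it may include reads of that gene. Of the other genes named in this report with an overlap of at least 5%, besides Chrm1, antisense genes cover 22.0% of Gnas, 15.1% of Csf1r, 13.4% of Gna12, 11.4% of Ric8a, 6.58% of Ctrc and 5.5% of Rgs12, and genes on the same strand cover 21.4% of Ctrc and 68.7% of Itgam.

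Myeloid and ductal markers moved the other way. Of 13 myeloid markers, 11 (84.6%) were higher in AP than in saline mice, beside 18.1% of all tested genes, and 8 were higher after median-of-ratios scaling. The sum of the 13 markers was 571 and 376 TPM with saline, 2417 and 2674 TPM with AP, and 532 and 423 TPM with pIC. Lyz2 had the highest mean of them over the 6 mice, though not in pIC mice, at 444 and 307 TPM, 1891 and 2118 TPM, and 203 and 119 TPM, and S100a8 was listed at 0 in saline replicate 2. Lyz2 made up most of the sum in AP mice. For pIC against AP, 3 of the 13 were lower, Lyz2, Itgam and Csf1r, and none of them passed without AP replicate 1, AP replicate 2 or pIC replicate 2, where 0 of all tested genes passed in limma. In that comparison 0.434% of all tested genes were lower in limma. At an unadjusted p of at most 0.05 and the same fold change, 9 of the 13 markers and 401 of the 16814 tested genes were lower. Cd14 (-0.05 ± 0.11), S100a9 (-0.44 ± 0.75), S100a8 (0.14 ± 1.16) and Itgax (-1.15 ± 0.49) were not among these 9. Against saline mice, 15.4% of the markers passed in each direction with pIC, beside 2.97% lower and 16.9% higher of all tested genes. Lyz2 and Csf1r were lower, and Cd14 and Cd68 were higher. The difference was 13.9-fold for Cd14 and 3.43-fold for Cd68 (adjusted p = 1.62e-05 and 0.00118). Of 12 ductal markers, 5 (41.7%) were higher in AP than in saline mice, beside 18.1% of all tested genes, and 3 were higher after median-of-ratios scaling. The sum of the 12 was 627 and 506 TPM, 2724 and 2663 TPM, and 2390 and 2580 TPM. Epcam had the highest mean over the 6 mice, though Krt19 had a higher mean in AP mice and Muc1 in saline mice. The part of these cell types in the differences of Cckar, Vipr1, Rgs2, Rgs11, Gnai2 and Adcy7 was not tested. Replicate 2 of the pIC mice stood apart for the ductal genes Car2 (44.7 TPM, against 5.37 in replicate 1), Slc4a4 (23.9 against 5.79) and Cftr (17.1 against 4.5). These 3 of the 12 were picked after their values were seen. The sums of the 12 in the same mice were 2580 TPM in replicate 2 and 2390 TPM in replicate 1.

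The lists of the other cell types were counted in the same way. For AP against saline, 4 of 10 stellate and fibroblast markers (40%) were higher (3 higher and 1 lower after median-of-ratios scaling). Of 11 tested islet markers, 1 (9.09%) was lower. Of all tested genes, 18.1% were higher and 4% were lower. In limma, 0 of 6 lymphoid, 10 endothelial, 6 smooth muscle, 6 nerve and glia, and 7 adipocyte markers passed in either direction. At an unadjusted p of at most 0.05 and the same fold change, 1 smooth muscle marker was higher and 1 adipocyte marker was lower, beside 3398 higher and 796 lower of the 16814 tested genes. Summed levels in the order saline, AP and pIC mice were 881 and 641, 843 and 1016, and 843 and 719 TPM for stellate cells and fibroblasts, and 2233 and 1880, 2350 and 1763, and 1325 and 1717 TPM for islets. They were 17.2 and 19.0, 9.23 and 48.9, and 39.8 and 54.9 TPM for lymphoid cells, and 132 and 81.3, 113 and 133, and 157 and 103 TPM for endothelium. Sums of smooth muscle markers were 64.9 and 15.7, 50 and 78.6, and 78.0 and 45.1 TPM, those of nerve and glia 11.9 and 9.26, 14.2 and 11.6, and 15.8 and 12.5 TPM, and those of adipocytes 342 and 149, 343 and 155, and 197 and 103 TPM. The genes of these lists with the highest mean over the 6 mice were Dcn, Iapp, Gzma, Pecam1, Acta2, S100b and Cfd. Gzma was listed at 0 in the saline and the AP mice and at 26.9 and 47.0 TPM with pIC. No marker in the tables was listed at 0 in all 6 mice.

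The genes whose levels followed those of the 8 genes most closely were found by Pearson's r of log2(TPM + 0.5) over the 6 mice, among 13508 tested protein-coding genes. With 3 groups of 2 mice, r mainly reflects the order of the groups and is given as a description. For Cckar these were Reg3d (r = 0.9953), with 4410 and 4480 TPM with saline, 825 and 774 TPM with AP, and 3600 and 3760 TPM with pIC, and P2rx1 (r = 0.9931), with 269 and 279, 135 and 129, and 240 and 249 TPM. For Vipr1 they were Ddx17 (r = 0.9968) and Aplp1 (r = 0.9938). Rgs2 was followed by Aktip (r = 0.9987), and Gna11 by Triqk (r = 0.9973) and Entpd5 (r = 0.9962). For Gnaq, Chrm3 and Sctr, which did not pass in any comparison, the closest genes were Tnrc18 (r = 0.9982) and Capn15 (r = 0.9865), Tmem189 (r = 0.9682) and Pyy (r = 0.9638), and Vwa1 (r = 0.9972) and Iffo1 (r = 0.9882).

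Promoter sequences from RefSeq (GRCm38.p6) were given for 5 of the 8 genes, Chrm3, Vipr1, Gnaq, Gna11 and Rgs2. Those of Vipr1 and Rgs2 are shown because these genes differed in opposite directions in AP mice. Each sequence is the 250 bases before the annotated start, 5′ to 3′ on the strand of the gene. The motifs searched on both strands were CAGCTG and CACCTG, which are E-boxes of the kind bound by basic helix-loop-helix factors, and TGACG, the core of the cyclic AMP response element. Capitals mark TGACG or its reverse complement CGTCA. Of 27025 promoter windows of this length, 12.8% hold CAGCTG, 17.1% hold CACCTG and 17.9% hold TGACG on either strand. The Vipr1 window lies on the plus strand at chr9:121642466-121642715 and the Rgs2 window on the minus strand at chr1:144004150-144004399.
Vipr1: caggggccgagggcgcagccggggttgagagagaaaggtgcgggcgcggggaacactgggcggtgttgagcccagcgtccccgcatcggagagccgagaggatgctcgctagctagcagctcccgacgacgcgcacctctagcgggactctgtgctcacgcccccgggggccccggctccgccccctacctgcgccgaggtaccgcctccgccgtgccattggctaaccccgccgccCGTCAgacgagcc
Rgs2: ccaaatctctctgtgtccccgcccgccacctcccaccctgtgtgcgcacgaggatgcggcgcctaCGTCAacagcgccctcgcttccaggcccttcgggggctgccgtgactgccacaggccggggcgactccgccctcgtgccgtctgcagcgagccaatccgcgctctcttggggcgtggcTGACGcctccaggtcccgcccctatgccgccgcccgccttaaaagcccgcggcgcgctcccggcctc
The Vipr1 window holds 1 match to TGACG and the Rgs2 window holds 2, and neither holds CAGCTG or CACCTG. The windows of Chrm3, Gnaq and Gna11 hold 0 matches to any of the motifs. A match to these letters is a description and not a binding site.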

How the data were processed

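Total RNA from the pancreas of 6 mice was sequenced. The authors used Trimmomatic for trimming, STAR for mapping to mm10, HTSeq for counting per gene and DESeq2 for their own comparisons. The authors deposited TPM values per gene for each mouse, and these values were used as deposited. The strand setting of the counting is not given in the sources used here. Of 22556 Ensembl identifiers, 22490 were found in GENCODE M21 (GRCm38), from which symbols, coordinates and exon lengths were taken. Reads on the listed genes were estimated for each library from the step of which low values of TPM × exon length are whole multiples (up to 20 multiples, tolerance 0.1).

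A linear model with 1 coefficient per group was fitted to log2(TPM + 0.5) of all 6 mice with limma 3.58.1 in R 4.3.3, for genes whose mean reached 1 TPM, with a prior variance that followed log2(mean TPM × exon length + 1). The Benjamini-Hochberg adjustment covered all tested genes in each comparison. The procedure was checked on simulated reads. The first check, a single draw, exceeded the limit set for false calls between AP and saline mice. After that was seen it was replaced by pooled draws, which met the same limit. In the simulated reads a small set of genes was changed in AP mice, equally up and down. In the real values 81.9% of the genes that passed for AP against saline were higher, and the check does not cover such a shift. The 8 genes, the pathway and marker lists and the form of the model were chosen with earlier results of these data known.

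Genes named in the text are the 8 genes, the genes of each pathway sublist that passed in a comparison (at most the 3 largest rises and 3 largest falls per sublist and comparison), the most abundant gene of each sublist, up to 2 genes most like each tested gene, and for each marker list its most abundant gene and those listed at 0. Gnas, Gna12, Grk2 and further markers were named after their values were seen. Genes of the lists that the tables do not hold were not analysed here. The alternatives were pseudocounts of 0.1 and 1, no filter and a mean of at least 5 TPM, median-of-ratios scaling, other prior variances, fits of only the 2 groups compared, the replicate number as a block, each mouse left out and unadjusted p-values.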

Additional observations from a re-analysis of the deposited data

How the results depend on the processing

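For the 7 tested genes of the 8, 180 of 186 fold changes under the alternatives that kept all mice held their direction and their side of the threshold, 3 reversed, 2 passed newly and 1 no longer passed. With a mouse left out, 108 of 126 held, 10 reversed, 4 passed newly and 4 no longer passed. Cckar and Rgs2 in AP against saline mice passed in every setting run. A lone mouse left in a group is assumed to vary like the other groups. Sctr has a mean below 5 TPM, so that filter gives no value for it. Genes with few reads are measured least precisely, most of all in the saline mice, where a single read was worth the most TPM.

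Median-of-ratios scaling turned Chrm3 (-0.32) and Gnaq (-0.35) in AP against saline mice and Gnaq (-0.31) in pIC against saline mice. It gave 1574 higher and 1224 lower genes in AP against saline mice (56.3% higher, against 81.9%) and 1322 and 978 in pIC against saline mice (57.5%, against 85%). In AP against saline mice, Chrm3 turned without AP replicate 1 (-0.09), Gnaq without saline replicate 2 (-0.14) or AP replicate 1 (-0.02), and Sctr without saline replicate 2 (-0.69). In pIC against AP mice, Chrm3 turned without AP replicate 1 (0.07) and Gnaq without AP replicate 2 (-0.02). In pIC against saline mice, Chrm3 turned without saline replicate 1 (0.00) or pIC replicate 2 (0.04), Gnaq without saline replicate 2 (-0.07) and Sctr without saline replicate 1 (0.48). With a mouse left out, the changes for AP against saline ranged from -0.09 to 0.30 (Chrm3), -0.14 to 0.28 (Gnaq) and -0.69 to 1.79 (Sctr), those for pIC against AP from -0.32 to 0.07 (Chrm3) and -0.02 to 0.16 (Gnaq), and those for pIC against saline from -0.08 to 0.04 (Chrm3), -0.07 to 0.35 (Gnaq) and -2.00 to 0.48 (Sctr). The cause was not tested.

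In pIC against AP mice, 149 genes passed. The count was 71 with no filter on low values, 28 with a prior variance following the mean log2 value, 41 with 1 prior variance for all genes, 61 with only the 2 groups compared and 731 at an unadjusted p of at most 0.05. Of the 8 genes, 1 passed there, against 2 with a mean of at least 5 TPM, 0 with 1 prior variance and 2 unadjusted. Of the pathway list, 2 passed, against 1 with a pseudocount of 0.1, no filter, a prior following the mean, 1 prior variance or only the 2 groups compared, and 8 unadjusted. In pIC against saline mice 0 of the 8 passed, against 1 with a pseudocount of 0.1. The cause was not tested.

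With a mouse left out, 2346 to 3703 genes passed in AP against saline mice (main fit 3715), 0 to 68 in pIC against AP mice and 2389 to 3401 in pIC against saline mice. The ranges were 2 to 3, 0 to 1 and 0 to 2 for the 8 genes, and 14 to 24, 0 to 1 and 7 to 13 for the pathway list. With the replicate number as a block, 3645 and 131 genes passed in the first 2 comparisons, 3 and 1 of the 8 genes, and 22 and 2 of the pathway list. Under the block, Prkcb for AP against saline (adjusted p = 0.0508) and Adcy7 for pIC against AP (adjusted p = 0.0584) did not pass, and Rgs5 passed newly for pIC against AP (-1.09, adjusted p = 0.0298), so the 2 were not the same genes. Over the tested genes as a whole, deviations of mice with the same number correlated at 0.0075 (saline and AP), -0.00385 (saline and pIC) and 0.0351 (AP and pIC). A batch that acts on only some genes may not show in these values. The replicate numbers do not say whether mice were handled together.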
